A study of Homo sapiens with 2 samples.

Results

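The keratins of MCF-10A cells were examined here: KRT14, KRT5 and KRT15 of the basal layer, the stress keratins KRT16, KRT6A and KRT6B, and the simple keratins KRT7, KRT8, KRT18 and KRT19. MCF-10A is an established, non-tumorigenic human mammary epithelial line. In these data 1 sample carried stable EGFP alone (genotype label EGFP vector), and the other carried the RhoGAP protein ARHGAP4 as a stable EGFP fusion (genotype label EGFP-ARHGAP4). RNA of each was hybridised to 1 whole-transcript array. Whether either line is a single clone, which promoter drives the insert and when the cells were harvested is not stated in the labels. The genes were taken by name from the annotated features of the array, and were selected on KRT14, whose difference between the 2 arrays was already known, together with other epithelial keratins. The difference of KRT14 is therefore given as a description. Of the 10 genes, 8 had a named feature, among 14812 named genes in all; KRT6A and KRT6B were not analysed here.

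Keratins are the intermediate filament proteins of epithelial cells. They form obligate pairs of a type I (acidic) and a type II (basic) chain, and the filaments are tied to desmosomes between cells and to hemidesmosomes at the basement membrane. In stratified and basal epithelium the characteristic pair is KRT14 with KRT5, and in simple epithelium KRT18 with KRT8. KRT16 and the KRT6 chains appear in wounded or stressed keratinocytes. In the mammary gland KRT14 and KRT5 mark basal and myoepithelial cells, and KRT8, KRT18 and KRT19 mark luminal cells. The type I genes lie together on chromosome 17 and the type II genes on chromosome 12, where KRT18 lies as well.

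Values are the deposited normalized log2 expression values, and differences are EGFP-ARHGAP4 minus EGFP vector. With 1 array per group there is no replicate, so no error between cultures, no p-value and no interval can be given for any value here, and a difference may be one between these cultures alone. The median deposited value was 2.88 in each array. Values are written below as with EGFP alone and with the fusion, in that order. ARHGAP4 itself stood at 4.49 with EGFP alone and 6.68 with the fusion, in the direction of the labels. A gene counts as past the level filter when the higher of its 2 values is 4.02 or more, which is the median over the gene-level values; 7685 genes passed. Of these, 77 (1.0%) were higher with the fusion by 2-fold or more, and 61 (0.794%) were lower by as much. The higher genes made up 55.8% of both as deposited, 67.2% after quantile normalization, 62.5% after centring on the median and 68.9% after removal of the trend with level. The median difference was -0.10 over genes past the filter and -0.03 over all named genes. The only gauge of precision within an array is the agreement of features that share a gene: the differences of such features had an SD of 0.21 within a gene, pooled over 336 genes past the filter. It describes features on the same arrays, not cultures.

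KRT14 was lower in the EGFP-ARHGAP4 array while its filament partner KRT5 was at nearly the same value in both arrays. On the log2 scale KRT14, the type I chain of the basal pair, stood at 9.21 with EGFP alone and 6.96 with the fusion. The EGFP-ARHGAP4 value thus lay well below the EGFP vector value, though it was still far above the median of all genes. The difference of -2.25 is a 4.76-fold lower value. It was the lowest of all genes past the filter, and the next lowest was at -1.93. KRT5, the type II chain, stood at 8.33 with EGFP alone and 8.34 with the fusion. Its difference of 0.02 was small beside the spread of 0.21 between features of 1 gene. KRT15, a type I keratin of basal cells that can also pair with KRT5, had values of 3.72 and 3.93, below the level filter in both arrays. Without detection calls, signal and background are hard to separate at low values, which limits what its difference of 0.22 can show. The 3 basal genes therefore held 1 large difference and 2 small ones, and their median of 0.02 describes KRT5 alone. Each of the 3 rests on 1 feature.

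Among the stress keratins, KRT16 was the only measured member. KRT16, a type I chain that pairs with KRT6 chains and is known from wound edges and hyperproliferative epidermis, stood at 4.54 with EGFP alone and 4.38 with the fusion. The difference of -0.16 was smaller than the spread between features of 1 gene. KRT6C, a type II chain close in sequence to KRT6A and KRT6B, was below the filter in both arrays, at 1.71 and 1.58. KRT17 was not analysed here, so 3 of the 5 listed stress keratins had no value.

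The simple keratins differed less than KRT14 did. KRT7, a type II chain of glandular and ductal epithelium, had values of 6.78 with EGFP alone and 6.68 with the fusion. Its difference of -0.10 took the opposite sign, 0.02, after removal of the trend with level, so no direction is given for it. KRT8, the type II chain of the simple pair, stood at 5.06 and 5.43, which is 1.29-fold higher in the EGFP-ARHGAP4 array. KRT19, a type I chain with almost no tail domain that marks luminal cells, had values of 2.99 and 3.39, both below the filter. Its difference of 0.41 was the highest among the measured members. KRT20, a simple keratin of the intestine that was listed beside the members, was also below the filter, at 2.47 and 2.57.

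KRT18, the type I partner of KRT8, was the only member with 2 features, and they stood at unlike levels. The feature 16751554 lies between named features of KRT7 and EIF4B in the numbering of the array, that is, among genes of chromosome 12 near KRT18. It had values of 5.60 with EGFP alone and 5.54 with the fusion, a difference of -0.06. The feature 16938654 is also annotated to KRT18 but lies between features of CMTM8 and CMTM7, genes of chromosome 3. It stood at 8.99 and 9.22, a difference of 0.22. The 2 differences thus had opposite signs but were small and 0.28 apart, beside an SD of 0.21 within a gene. The wider gap between the features was in level, and whether the second takes up RNA of another locus was not tested. The mean of the 2 features, 7.30 with EGFP alone and 7.38 with the fusion, gives a difference of 0.08.

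**Figure D1:**
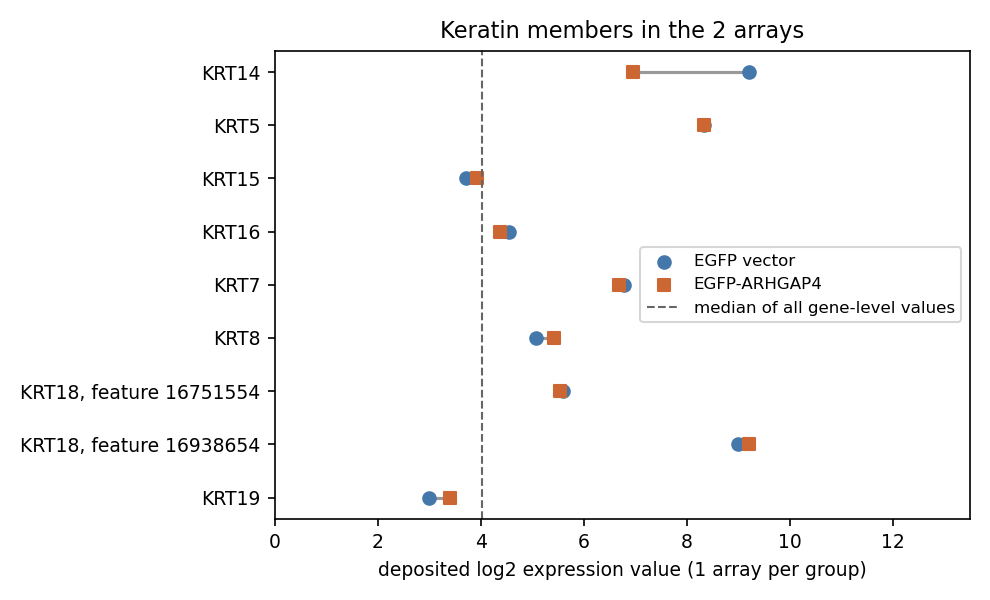
Deposited log2 values (horizontal axis) of the 9 features of the 8 measured keratins, with a circle for the EGFP vector array and a square for the EGFP-ARHGAP4 array, 1 array each; the dashed line is the level filter, 4.02. KRT14 alone has widely separated symbols, at 9.21 and 6.96, while KRT15 and KRT19 lie left of the line in both arrays.

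Taken over the 8 measured members, 1 was at least 2-fold lower, KRT14, and 0 were at least 2-fold higher, where 0.486% of all named genes were at least 2-fold lower and 0.581% at least 2-fold higher. At a log2 difference of 0.5 the count was the same, 1 lower and 0 higher, against 6.47% and 4.25% of all named genes. Since KRT14 was chosen on this contrast, nothing is read from these counts. The median of the 8 members was 0.05, with 5 above 0 and 3 below, where 6166 of all named genes were above 0 and 7833 below. Without KRT14 the median of the other 7 was 0.08 and their range -0.16 to 0.41. The level filter was passed by 6 members, and KRT15 and KRT19 did not pass it. Of the 722 genes with a mean value of 8 or more, 5 (0.693%) were at least 2-fold lower, KRT14 among them. That share is near the 0.794% of all genes past the filter, and nothing is read from it either.

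**Figure D2:**
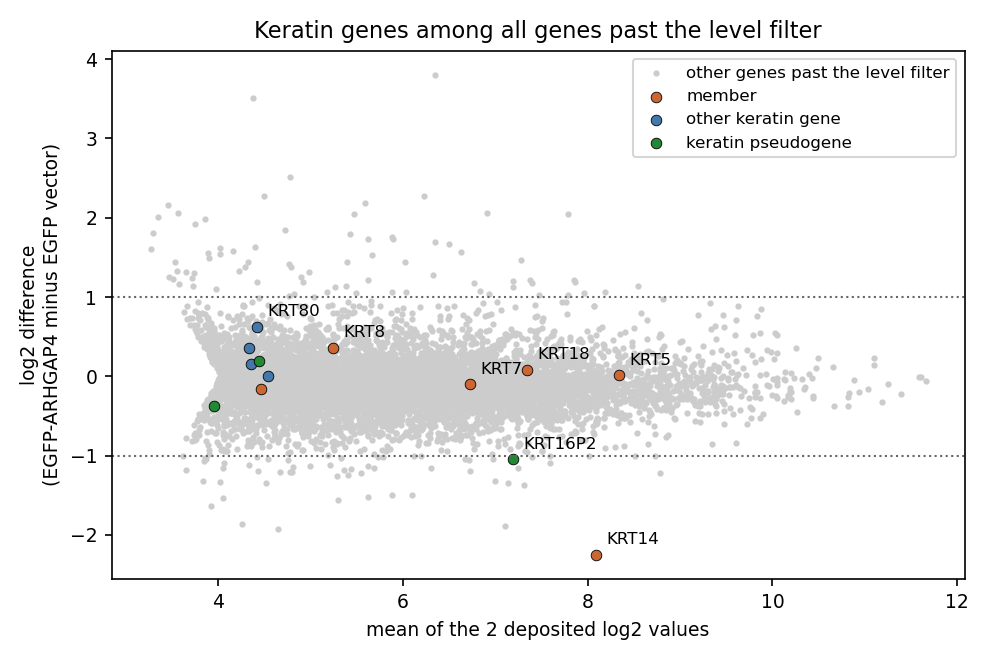
Log2 difference, EGFP-ARHGAP4 minus EGFP vector (vertical axis), against the mean of the 2 log2 values (horizontal axis) for the 7685 genes past the level filter; grey points are other genes, coloured points are keratin members, other keratin genes and keratin pseudogenes, and dotted lines mark 2-fold. KRT14 is the lowest point at -2.25, KRT16P2 lies at -1.05, and the other keratins lie inside the dotted lines.

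The rest of the keratin family was mostly below the level filter. Of the 39 other keratin genes with a value, pseudogenes left out, 35 were below the filter in both arrays and 4 passed it. None of the 39 was 2-fold different in either direction, where 0.486% of all named genes were lower and 0.581% higher by as much. KRT80, a type II keratin that has been described in differentiating epithelia, stood at 4.10 with EGFP alone and 4.73 with the fusion, 1.54-fold higher. KRT85, a type II hair keratin, stood at 4.16 and 4.52. KRT31, a type I hair keratin, stood at 4.27 and 4.43. KRT37, another hair keratin, held exactly the same value in both arrays, 4.54. All 4 lie close to the filter of 4.02. Only KRT80 among them reached a log2 difference of 0.5, as 5.15% of all genes past the filter did in that direction and 9.81% in the other.

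The other type I keratins had a median of 0.13 over 20 measured genes, with 13 above 0, 5 below and 2 at 0. The other type II keratins had a median of -0.13 over 17 measured genes, with 7 above 0 and 10 below. Of all named genes 6166 were above 0 and 7833 below. Each list held only 2 genes past the filter. Among type II genes below it were KRT71, a keratin of the hair follicle's inner root sheath, at 2.78 and 2.14, KRT72 at 3.05 and 2.52, and KRT3, a keratin of the cornea, at 3.43 and 3.04. Among type I genes below it were KRT36, a hair keratin, at 2.88 and 3.41, KRT12, the corneal partner of KRT3, at 1.66 and 2.13, and KRT13, a keratin of stratified mucosa, at 2.44 and 2.08. The differentiation keratins of the epidermis, KRT1 and KRT10, had values of 1.99 and 1.93, and of 2.42 and 2.38, all near the low end of the scale. The difference of KRT10 changed sign when the differences were centred on their median.

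By position, KRT14 was set beside its neighbours on chromosome 17. The nearest measured genes on one side were KRT9, a keratin of palm and sole skin, at 2.76 with EGFP alone and 2.51 with the fusion, LINC00974 at 2.71 and 2.81, and KRT19. On the other side were KRT16, the pseudogene KRT42P at 4.34 and 4.54, and EIF1, a translation initiation factor gene, at 8.45 and 8.46. None of these neighbours differed by 0.5, where 6.47% of all named genes were lower and 4.25% higher by as much. KRT9, LINC00974 and KRT19 were below the level filter in both arrays, and KRT16 and KRT42P stood close to it. A lower value would be hard to see in these genes, so nothing is read from this count. The 25 keratin genes of chromosome 17 had a median of 0.12, and the 507 genes of that chromosome past the filter had a median of -0.05. The 22 keratin genes of chromosome 12 had a median of -0.08, and the 377 genes of that chromosome past the filter one of -0.12.

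**Figure D3:**
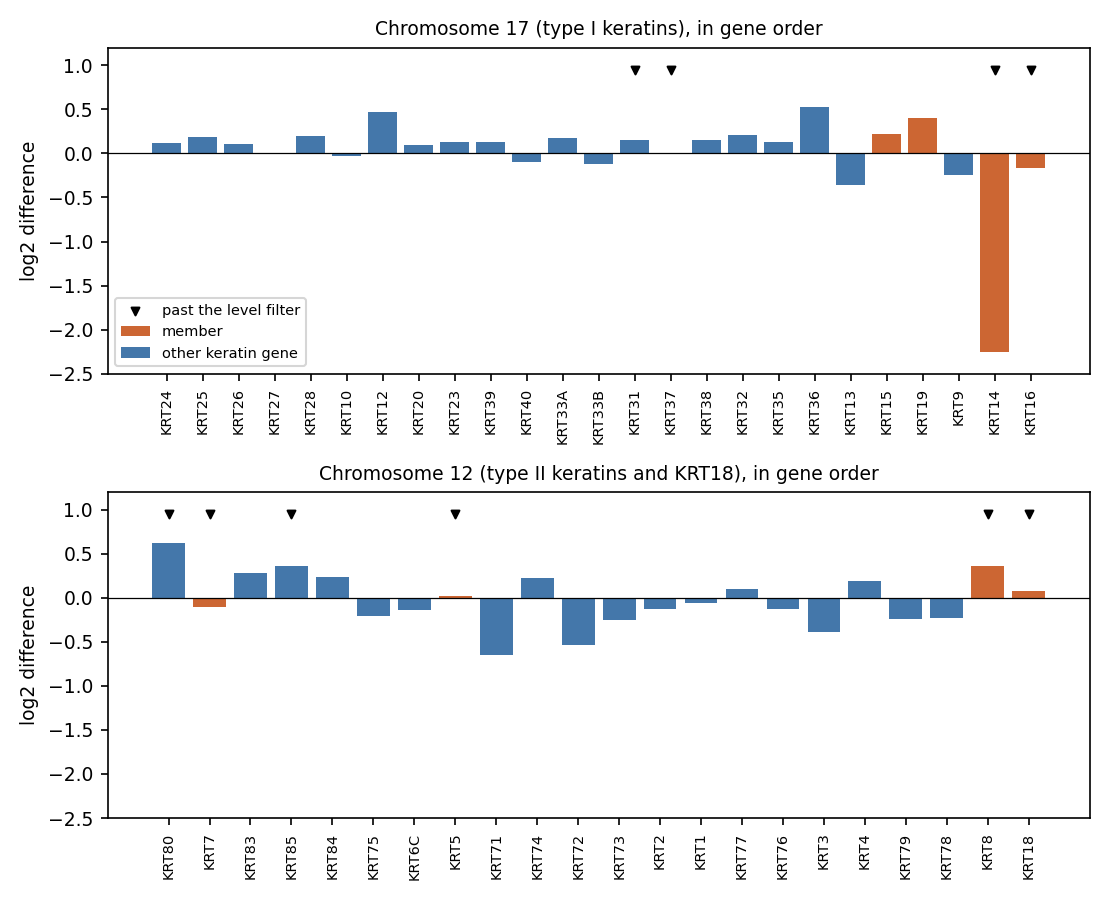
Log2 difference, EGFP-ARHGAP4 minus EGFP vector (vertical axes), of each measured keratin gene in gene order along chromosome 17 (top) and chromosome 12 (bottom), pseudogenes left out; orange bars are members, blue bars other keratin genes, and triangles mark genes past the level filter. The bar of KRT14 reaches -2.25 while its neighbours KRT9 and KRT16 stand at -0.24 and -0.16.

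A keratin pseudogene also differed. KRT16P2, a transcribed pseudogene related to KRT16 that lies elsewhere on chromosome 17, stood at 7.71 with EGFP alone and 6.67 with the fusion. The difference of -1.05 is a 2.06-fold lower value, and KRT16P2 was the only keratin locus other than KRT14 past 2-fold. It was 1 of 7 measured keratin pseudogenes. Of all named genes 0.486% were at least 2-fold lower, and of genes past the filter 0.794%. Nothing is read from this count. KRT16P3, a related pseudogene, stood at 4.14 and 3.77. KRT16 itself, at -0.16, did not show a difference of that size. KRT42P and the remaining 4 pseudogenes had differences between 0.17 and 0.29, and those 4 were below the filter. KRT14, KRT16 and KRT17 and the pseudogenes of KRT16 and KRT17 are close in sequence, so a feature named for one can take up RNA of another. How far the values of KRT14 and KRT16P2 share a source was not tested.

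Outside the keratin genes, the genes whose values lay nearest to those of KRT14, by Euclidean distance over the 2 arrays and among genes past the filter, were RSU1, SMC4, NFIX, BUB1 and ECT2. Their distances ran from 0.89 to 1.05. RSU1, an adaptor of integrin adhesions, stood at 8.52 with EGFP alone and 7.51 with the fusion. It lies on chromosome 10, among the 50 genes past the filter around VIM, which had a median of -0.92. What part of the difference of RSU1 the region accounts for was not tested. SMC4, a condensin subunit, stood at 8.64 and 7.73, and NFIX, a transcription factor, at 8.75 and 7.85. The mitotic genes BUB1 and ECT2 had differences of -0.81 each. The smallest distance was 0.89. The spread between features of 1 gene is one of differences, not of levels, so it gives no scale for these distances. With 2 arrays this likeness says only that the values lie near each other.

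The proteins that anchor keratin filaments at cell junctions were measured for 11 of 14 listed genes. None was lower by 0.5 and 2 were higher by 0.5, where 6.47% and 4.25% of all named genes were. The filter was passed by 10 of the 11, and of all genes past it 9.81% were lower and 5.15% higher by 0.5. In this list 0 genes differed by 2-fold, where 0.486% of all named genes were lower and 0.581% higher by as much. The median of the list was 0.15. EPPK1, epiplakin, which binds and bundles keratins, stood at 5.73 with EGFP alone and 6.46 with the fusion. PPL, periplakin of the cornified envelope and desmosomes, stood at 4.89 and 5.48. JUP, plakoglobin, stood at 8.43 and 8.71, and DSP, desmoplakin, which ties keratins to desmosomes, at 9.48 and 9.21. PLEC, plectin, and DST, dystonin, which tie the basal KRT5 and KRT14 filaments to hemidesmosomes, had differences of 0.08 and -0.16. Of 9 listed keratin partners 3 were measured. KLHL24, the adaptor of a ubiquitin ligase that directs KRT14 protein to degradation, stood at 4.87 and 5.33, 1.38-fold higher. SFN, the 14-3-3 protein stratifin, which binds keratins, differed by 0.02 and TRADD, a death receptor adaptor reported to bind KRT14 and KRT18, by 0.14.

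Other intermediate filament genes had a median of -0.15 over 8 of 15 listed genes. LMNB1, a lamin of the nuclear envelope, stood at 8.21 with EGFP alone and 7.52 with the fusion, and LMNB2, the other B-type lamin, at 8.44 and 7.99. LMNA, the A-type lamin gene, stood at 5.64 and 5.88. VIM, vimentin, the intermediate filament protein of mesenchymal cells that MCF-10A cells also make, stood at 7.23 and 6.59, 1.56-fold lower. VIM lies on chromosome 10 in a region where genes were lower in general. The 25 genes past the filter on either side of it, 50 in all, had a median of -0.92. Of these 50 genes 46 were below 0, where 4719 of all 7685 genes past the filter were. The difference of VIM, -0.64, was smaller in size than the median of its neighbours, whose differences ran from -1.93 to 0.66. What part of the difference of VIM the region accounts for was not tested.

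Transcription factors known to act on keratin genes were measured for 17 of 22 listed genes, and TP63 was not analysed here. Their median was -0.07 and took the opposite sign, 0.02, after removal of the trend with level. By 0.5, 3 were higher and 2 lower, where 4.25% and 6.47% of all named genes were. The filter was passed by 13 of the 17, and of all genes past it 5.15% were higher and 9.81% lower by 0.5. By 2-fold 0 differed, where 0.581% of all named genes were higher and 0.486% lower by as much. GRHL3, a factor of epidermal differentiation, stood at 3.94 with EGFP alone and 4.68 with the fusion, and passed the filter only through the latter. FOS, a subunit of AP-1, stood at 4.82 and 5.35, and KLF4, a factor of barrier formation, at 4.21 and 4.71. GATA3, the luminal factor, stood at 5.37 and 4.71; it is one of the 50 genes around VIM with the median of -0.92, and what part of its difference the region accounts for was not tested. TFAP2C, an AP-2 factor of mammary and epidermal cells, stood at 6.43 and 5.89. FOSL1 and JUN, which also belong to AP-1, stood at 9.05 and 8.70 and at 5.87 and 6.34, differences below 0.5 in opposite directions.

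**Figure D4:**
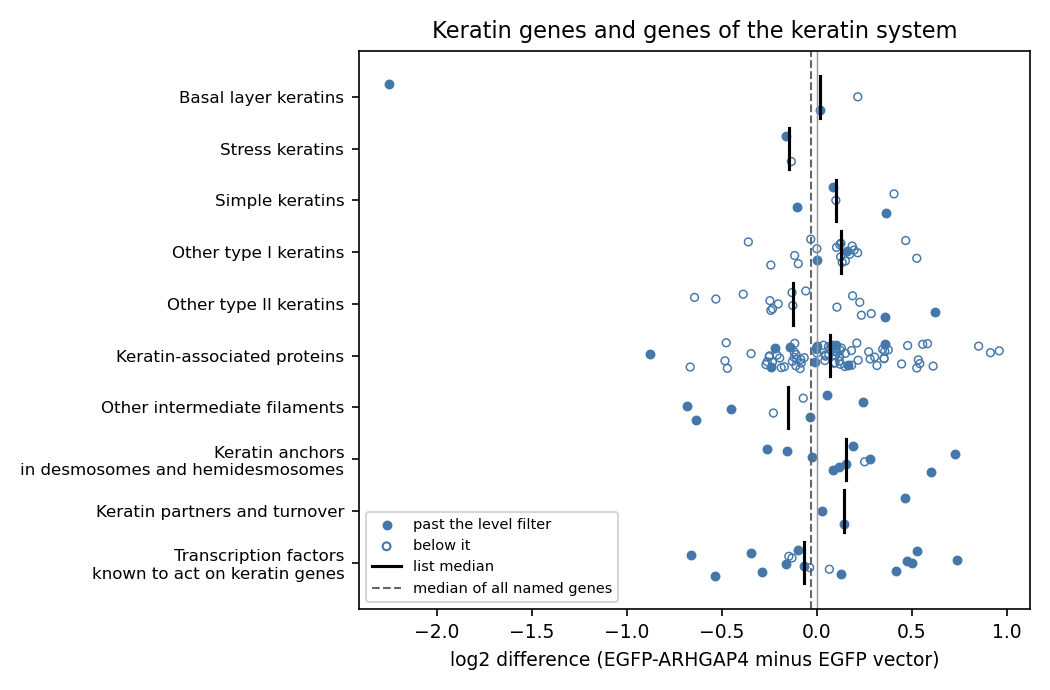
Log2 difference, EGFP-ARHGAP4 minus EGFP vector (horizontal axis), of every measured gene in 10 lists of keratins and genes of the keratin system; filled circles passed the level filter, open circles did not, black bars are list medians and the dashed line is the median of all named genes, -0.03. All list medians lie between -0.15 and 0.15, and KRT14 lies alone at -2.25.

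The labelled cell type was set against marker genes. Of 20 listed basal and myoepithelial markers 12 were measured, with 9 past the filter and a median of -0.03. SNAI2, a basal transcription factor, stood at 10.1 with EGFP alone and 9.87 with the fusion. MME, the surface peptidase CD10 of myoepithelial cells, stood at 5.03 and 6.76, 3.32-fold higher, the opposite direction to KRT14. TAGLN, a smooth muscle protein, stood at 4.75 and 4.32, and TRIM29 at 4.77 and 5.09. Of 25 listed luminal markers 21 were measured, with 11 past the filter and a median of 0.08. WFDC2, a secreted protease inhibitor, stood at 3.21 and 4.83, and EPCAM, an epithelial adhesion molecule, at 6.58 and 7.79. WFDC2 passed the filter only through its value with the fusion. CD24, a surface glycoprotein of luminal cells, stood at 4.94 and 5.78, and SLPI, a leukocyte protease inhibitor, at 9.08 and 9.84. In all, 6 of the 21 were higher by at least 0.5, including CLDN4 and PGR below the filter. Of all named genes, 4.25% were higher and 6.47% lower by 0.5, and of all genes past the filter 5.15% and 9.81%. Only GATA3 was lower by as much, at -0.66, within the region of chromosome 10 around VIM whose genes had a median of -0.92, and ESR1, the oestrogen receptor gene, was below the filter at 2.90 and 2.55. Of the 12 measured basal markers 1 was higher by 0.5, MME, and 1 lower, KRT14, both also past 2-fold. By 2-fold 2 luminal markers were higher, WFDC2 and EPCAM, and 0 lower. Of all named genes, 0.581% were higher and 0.486% lower by as much. KRT14 was chosen on this contrast and is itself on the basal list, of which 8 genes were not measured. Both lists were chosen with earlier results of these data known, so nothing is read from these counts.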

How the data were processed

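Total RNA was extracted, amplified to sense-strand cDNA, fragmented and labelled with biotin, per the labels' protocols. The authors deposited 1 normalized log2 value per feature and array for 44629 features; neither software, summarisation, normalization nor build is given in the sources used here, and log2 is read from the values, whose maximum is 12.8. An earlier common scaling would remove overall differences. No detection calls were used. The number of arrays limits the precision.

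The platform annotation named 1 gene for 15835 features, several for none and none for 28794; RefSeq (GRCh38.p14) gave current names and gene order only. Log2 values of features of 1 gene were averaged; 14161 genes rest on 1 feature. Differences were counted at 1 and 0.5. Named genes were the members, other keratins past the filter, KRT14's neighbours and 5 nearest genes by value, ARHGAP4 and up to 4 genes per list by absolute difference; others (such as KRT1, KRT10, PLEC, DST, FOSL1, JUN and ESR1) were named after their values were seen. Members and lists were chosen with earlier results of these data known. Alternatives were quantile normalization, centring, loess (span 0.3), the highest feature, other level filters and another threshold. The tools were matplotlib 3.10.9, statsmodels 0.14.6, numpy 2.4.6, pandas 2.3.3 and Python 3.11.15, and calculations were tested on simulated data.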

Additional observations from a re-analysis of the deposited data

How the results depend on the processing

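No paired analysis was possible because each group has 1 array. Over quantile normalization, centring, loess and the highest feature, the difference of KRT14 lay between -2.25 and -2.12 and that of KRT5 between 0.02 and 0.15. KRT14 was the only member past 2-fold under these settings, both level filters and the threshold of 0.5. A value was taken as unmoved when it shifted by less than 0.21, the SD between features of 1 gene, and a count when it stayed within 1.5 times. By this, 115 of 123 alternative values were unmoved and 0 reversed a difference past 2-fold. Many of these could hardly move. The highest feature leaves the 7 members on 1 feature as they are, and centring moved every difference by the same 0.03. Level filters cannot change the difference of a gene. The limit of 0.21 also exceeds the differences of KRT5, KRT7, KRT16 and KRT18, so for these the count says little. The small median of the members, 0.05, became -0.04 with either level filter, and that of the simple keratins became -0.01 at the 0.75 quantile. With either level filter the basal layer median was -1.12, since 2 genes were left. With the filter at the 0.5 quantile the other type II keratins had a median of 0.49, over 2 genes. With the filter at the 0.75 quantile the other intermediate filaments had a median of -0.64. That filter left 39 genes at least 2-fold higher and 35 lower, and the threshold of 0.5 gave 396 and 754. It left no other type I, other type II or stress keratin. The filter of 4.02 is the median of the gene-level values, not a measured background. Without detection calls, low values are hard to separate from background, which limits what KRT15, KRT16, KRT19 and most other keratins can show.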

Other observations

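Keratin-associated protein genes, which make the matrix of the hair shaft, were mostly below the level filter, at 74 of 84 measured genes. Their median difference was 0.07, with 48 above 0, 30 below and 6 at 0, where 6166 of all named genes were above 0 and 7833 below. By 2-fold 0 of them differed, where 0.486% of all named genes were lower and 0.581% higher by as much. KRTAP19-2 had the highest difference, with values of 1.61 with EGFP alone and 2.57 with the fusion. KRTAP2-1 stood at 2.48 and 3.39, and KRTAP10-7 at 2.44 and 3.29. KRTAP20-1 was the lowest, at 5.17 and 4.30. KRTAP5-7 stood at 7.20 and 7.36. The family is repetitive, and which RNA its features take up was not tested.

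Markers of other cell types were measured in part. The 3 measured fibroblast markers of 10 and the 4 measured adipocyte markers of 6 were below the filter in both arrays. Of 7 measured endothelial markers of 10, 2 were past the filter, CLDN5 at 4.31 and 4.32 and KDR. KDR passed it only through its value with the fusion. Only KDR was past 2-fold, at 3.36 and 5.63, while ESAM stood at 3.93 and 3.62 and TIE1 at 2.63 and 2.94. Of 6 measured immune markers of 10, 4 were past the filter, SRGN only through its value with the fusion. SRGN stood at 2.61 and 6.13 and LAPTM5 at 4.45 and 6.50, both past 2-fold. Of all named genes, 0.581% were at least 2-fold higher, KDR, SRGN and LAPTM5 among them. CD68, a lysosomal protein of macrophages that other cells also make, stood at 7.32 and 7.80, and CD14 at 5.84 and 5.48. CSF1R and LYZ were below the filter, at 3.41 and 3.91 and at 1.70 and 1.69. What part any other cell type has in the keratin values was not tested.

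Exact repeats occur in the deposited values. In the EGFP vector array 9 features, KRT16 and KRT37 among them, hold the same value, 4.54 when rounded. In that array 22.9% of features hold a value that recurs, and 6.96% of features hold the same value in both arrays, KRT27 and KRT37 among the keratins. A difference of exactly 0 in these genes was given as deposited.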
